A study of Homo sapiens with 6 samples.

Results

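The genes described here are 8 regulators of bone metastasis in prostate cancer, taken by gene symbol from count tables that hold 24462 symbols. They are the osteoclast regulators PTHLH, TNFRSF11B and TNFSF11, the bone matrix genes SPP1 and IBSP, the osteoblast transcription factor RUNX2, the homing receptor CXCR4 and the osteoblast-stimulating ligand EDN1. Each of the 8 symbols had 1 row in the tables. They were measured by RNA-seq in PC3, an androgen-independent human prostate cancer line that was established from a tumour in bone, in 3 libraries of cells given non-targeting control siRNA (si-Control) and 3 of cells given siRNA against CITED2 (si-CITED2). In both groups the siRNA was used at 80 nM and the cells were analysed 72 h after transfection, in RPMI1640 medium with heat-inactivated serum. CITED2 is a co-regulator that binds the acetyltransferases CBP and p300, and the study asked how its loss changes the expression of metastasis genes. All values come from a single cell line in culture, without bone cells, and mRNA was measured in bulk, so that a change in the number of expressing cells and a change per cell cannot be told apart.

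Prostate cancer spreads to bone more than to other organs, and its lesions in bone can hold both new bone and bone loss. Tumour cells act on bone mainly through secreted factors. Parathyroid hormone-related protein (encoded by PTHLH) makes osteoblasts display RANKL (TNFSF11), which drives osteoclast formation, and osteoprotegerin (TNFRSF11B) is the decoy receptor that captures RANKL. Endothelin-1 (EDN1) stimulates osteoblasts, RUNX2 is the master transcription factor of osteoblasts and is also made by tumour cells that take on bone-like expression, SPP1 (osteopontin) and IBSP (bone sialoprotein) are matrix proteins that bind integrins, and CXCR4 is the receptor for CXCL12, a chemokine of the marrow.

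The libraries held 19508925 to 28936374 counts, so that 3 counts, the smallest number taken as detectable, were worth 0.104 to 0.154 CPM (counts relative to the TMM-scaled library total). CITED2 mRNA, the target of the siRNA, was counted 966, 1108 and 657 times in si-Control and 893, 964 and 898 times in the libraries labelled si-CITED2. After scaling this was 35.7 ± 2.61 CPM (SD, n = 3) against 42.3 ± 3.5 CPM (SD, n = 3), and CITED2 mRNA was thus higher, not lower, in the libraries labelled si-CITED2 (log2 fold change 0.24, standard error 0.07, adjusted p = 0.0363 by the quasi-likelihood test of edgeR with Benjamini-Hochberg adjustment). The mRNA does not show the knockdown that the labels state. The study checked it on the protein by immunoblot, which was not analysed here, and each direction given is that of the labels. The call rests on single libraries: it was lost in 4 of the 6 fits without 1 library, with log2 fold changes of 0.173 to 0.291. The libraries expressed the keratins of epithelial cells (KRT8 with 15594 to 21687 counts), whereas the luminal prostate genes KLK2 and HOXB13 and the osteoclast gene DCSTAMP were at 0 in all 6 libraries. The leukocyte marker PTPRC had at most 2 counts in a library, whereas CD68, a lysosomal protein of macrophages, was at 122 to 146 CPM with overlapping groups. CSF1R, a receptor of the macrophage lineage, was counted 11, 6 and 5 times in si-Control and 32, 28 and 9 times in the libraries labelled si-CITED2 (log2 fold change 1.85 with no filter on low counts, adjusted p = 0.00268 from edgeR). A list of 7 markers of PC3 as a carcinoma line mixed epithelial genes with VIM and CD44 and moved in both directions. CDH1 and EPCAM, adhesion proteins of epithelial cells, fell by 0.52 and 0.33 on the log2 scale (adjusted p = 1.67e-05 and 0.0011 from edgeR). The keratins KRT8 (0.24) and KRT18 (0.18), the mesenchymal filament gene VIM (0.26) and CD44 (0.89) rose, and KRT19 was not called (0.08). The summed levels of this list were 3231 to 3423 CPM in si-Control and 3788 to 4041 CPM in the libraries labelled si-CITED2, and the sums of 7 luminal markers were 10.6 to 11.8 and 13.8 to 17.9 CPM. Osteoblast markers summed to 1.45 to 1.74 and 1.67 to 2.27 CPM, endothelial ones to 0.599 to 0.957 and 0.608 to 0.93 CPM, and leukocyte and osteoclast ones to 137 to 148 and 125 to 150 CPM, of which CD68 was most. The osteoclast markers CALCR and ACP5 were not absent. CALCR was at 0.599 to 0.991 CPM and not called (log2 fold change 0.20, adjusted p = 0.744 from edgeR). ACP5, under the filter, was counted 13, 9 and 8 times in si-Control and 4, 6 and 3 times in the libraries labelled si-CITED2. The part of these shifts in the results was not tested.

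Of the 8 genes, 3 were higher in the libraries labelled si-CITED2 and none was called lower by edgeR, with 1 lower (TNFRSF11B) at an unadjusted p under 0.05 and 1 lower by limma-voom. PTHLH rose by 2.63-fold, EDN1 by 1.88-fold and RUNX2 by 1.41-fold. TNFRSF11B was at 0.42 of its control level, which did not pass the test, and CXCR4, SPP1, IBSP and TNFSF11 were too low to enter it. The test covered the 16314 genes that passed the filter on low counts, of which 9.36% were called higher and 8.09% lower at an adjusted p under 0.05, and 4 of the 8 genes were among the genes tested.

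**Figure D1:**
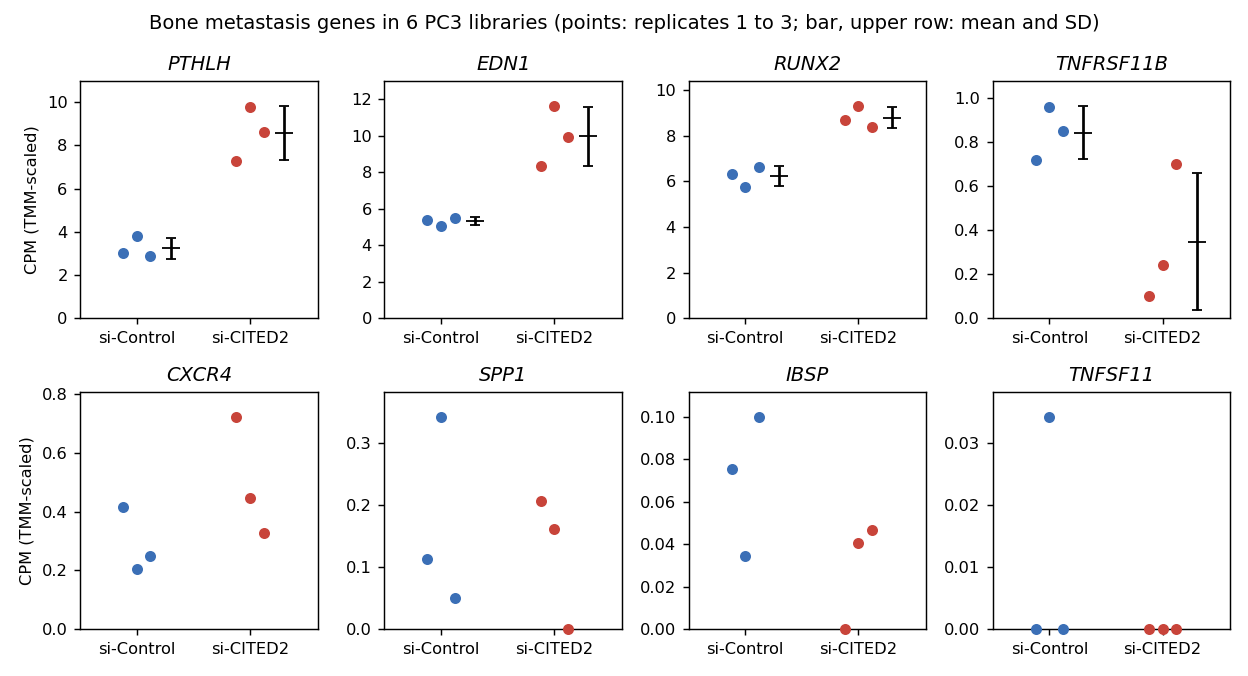
CPM after TMM scaling of each of the 8 genes in the 3 si-Control libraries (blue) and the 3 libraries labelled si-CITED2 (red), each panel with its own linear axis from 0, with mean and SD for the 4 tested genes of the upper row. PTHLH, EDN1 and RUNX2 lie higher in every red point than in every blue point, TNFRSF11B lies lower, and the genes of the lower row stay below 1 CPM.

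Promoter sequence is shown for the 3 genes that rose, because they moved in the same direction. Promoters were taken from RefSeq on GRCh38.p14 as the 250 bases before each annotated start, and 7 of the 8 genes had an entry, with 13 windows in all. The letters searched on both strands were CAGAC (the box bound by SMAD proteins), TGANTCA (the AP-1 element), TGTGGT (the RUNX element), ACGTG (the core of the hypoxia response element) and TGGGTGGTC (a GLI element). AP-1 reads the same on both strands and was counted once, and no match of one element shared bases with a match of another in the sequences printed here. Capitals mark the matches, in the reverse complement where the match is on the opposite strand. The first sequence is the most downstream of 3 EDN1 windows, chosen because it overlaps no annotated exon (chr6:12290111-12290360, plus strand), and the others are stretches of 30 bases around a match, for PTHLH (chr12:27970002-27970031, minus strand) and for the distal RUNX2 promoter (chr6:45328080-45328109, chr6:45328127-45328156 and chr6:45328231-45328260, plus strand).
EDN1: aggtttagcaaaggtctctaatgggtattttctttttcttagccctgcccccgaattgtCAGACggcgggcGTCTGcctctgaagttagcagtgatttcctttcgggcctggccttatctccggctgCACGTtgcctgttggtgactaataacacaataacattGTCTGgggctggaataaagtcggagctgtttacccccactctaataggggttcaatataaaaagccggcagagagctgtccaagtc
PTHLH: agaggaggtagaCAGACagctatgtatata
RUNX2 AP-1: atcctcaTGAGTCAcaaaaattaaaaagct
RUNX2 element, far: aggaaaggccttACCACAagccttttgtga
RUNX2 element, near: gtgaggtcacaaACCACAtgattctgcctc

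This EDN1 window held 3 SMAD boxes, which began 191, 179 and 86 bases before the start, and 1 hypoxia core at 123 bases. The PTHLH window held 1 SMAD box, 43 bases before the start, in a stretch that longer PTHLH transcripts carry as exon. The distal RUNX2 window held 1 AP-1 element at 243 bases and 2 RUNX elements at 191 and 87 bases, and the other RUNX2 window held none of the 5 elements. Among 35116 promoter windows of the same length, 38% held a SMAD box, 6.57% the AP-1 letters, 11% the RUNX letters, 18.5% the hypoxia core and 0.199% the GLI letters. Of the 13 windows of these genes, 7 held a SMAD box, 3 the hypoxia core, 2 the RUNX letters, 1 the AP-1 letters and none the GLI letters. These matches describe the letters only.

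PTHLH, whose product raises RANKL on osteoblasts and mobilises calcium from bone, showed the largest rise of the 8 genes. It was counted 80, 111 and 58 times in si-Control and 141, 241 and 185 times in the libraries labelled si-CITED2. In CPM this was 3.02, 3.79 and 2.9 against 7.27, 9.78 and 8.61, so that the lowest library labelled si-CITED2 lay well above the highest si-Control library. The means were 3.24 ± 0.486 and 8.55 ± 1.25 CPM (SD, n = 3 each). The log2 fold change was 1.39 (standard error 0.16, adjusted p = 7.02e-06 from edgeR), which ranked 146 from the highest of the 16314 tested genes. On GENCODE 29 its exons overlap AC008011.2 on the opposite strand, and since the counting is not stated to use strand, reads of the 2 cannot be told apart. An exact permutation test on the CPM, two-sided, gave p = 0.1, the smallest value that 3 libraries against 3 allow. A non-overlap with the higher values in the libraries labelled si-CITED2 was seen in 16.4% of the tested genes.

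The receptor of PTHLH was not called, and some of its known inputs were. PTH1R, the receptor of parathyroid hormone and of its related protein, was at 2.84 ± 0.352 CPM in si-Control and 2.82 ± 0.801 CPM in the libraries labelled si-CITED2 (SD, n = 3 each), with overlapping groups (log2 fold change 0.01, standard error 0.21, adjusted p = 0.987 from edgeR). GLI2, a Hedgehog transcription factor known to activate PTHLH in tumours, rose from 20.4 ± 0.735 to 34.4 ± 1.84 CPM (SD, n = 3 each), a log2 fold change of 0.75 (adjusted p = 1.14e-06 from edgeR). In the list of 14 genes around PTHLH, 11 were tested, 4 were higher and 1 was lower. The vitamin D receptor VDR (log2 fold change 0.40), the type I TGF-β receptor TGFBR1 (0.37) and TGFB1 (0.29) rose with GLI2, and the type II receptor TGFBR2 fell by 0.24 on the log2 scale. The median log2 fold change of the 11 tested genes was 0.22, beside 0.00 over all genes tested.

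TNFRSF11B, the decoy receptor that shields bone from RANKL, had the opposite direction. It was counted 19, 28 and 17 times in si-Control and 2, 6 and 15 times in the libraries labelled si-CITED2. In CPM this was 0.717, 0.957 and 0.849 against 0.103, 0.243 and 0.698. The groups did not overlap, as in 16.1% of the tested genes in that direction, but the third library labelled si-CITED2 lay close under the lowest si-Control library. The log2 fold change was -1.25 (standard error 0.47, unadjusted p = 0.0168, adjusted p = 0.0801 from edgeR), which missed the threshold. Without the third library labelled si-CITED2 it was -2.19 and passed (adjusted p = 0.0104 from edgeR). The gene passed the low-count filter, which asks for 0.43 CPM in 3 libraries, through the si-Control group, where it is higher.

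TNFSF11, which encodes RANKL itself, was counted once in 1 si-Control library and not at all in the other 5 libraries. A level above the detection limit of 0.104 to 0.154 CPM was therefore not found in either group, and no fold is given. The ratio of RANKL to osteoprotegerin counts, which is read as the balance between bone loss and protection, could only be bounded. With RANKL set at 3 counts it was at most 0.158, 0.107 and 0.176 in the 3 si-Control libraries and at most 0.5 and 0.2 in the second and the third libraries labelled si-CITED2. In the first library labelled si-CITED2 osteoprotegerin itself had only 2 counts and no ratio was formed. Each bound takes the osteoprotegerin count as observed, so that the counting error of that count is not covered. The bounds do not show a difference in the ratio.

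Among 15 other osteoclast drivers, 10 were tested, 3 were higher and 1 was lower, with a median log2 fold change of 0.20. With no filter on low counts 5 were higher. RANK itself (TNFRSF11A) was at 12.7 ± 1.24 CPM in si-Control and 11.2 ± 0.969 CPM in the libraries labelled si-CITED2 (SD, n = 3 each) and was not called (log2 fold change -0.18, adjusted p = 0.314 from edgeR). IL6 and IL11, cytokines that act on osteoclast formation, gave the largest rises among the tested genes of the list. The monocyte chemokine CCL2, which did not pass the filter, was counted 2, 0 and 2 times in si-Control and 6, 5 and 15 times in the libraries labelled si-CITED2 (log2 fold change 2.78 with no filter, standard error 0.83, adjusted p = 0.0163 from edgeR). IL6 was at 2.23, 2.26 and 2 CPM in si-Control and 6.86, 6.49 and 7.21 CPM in the libraries labelled si-CITED2 (log2 fold change 1.65, adjusted p = 6.04e-07 from edgeR). IL11 was at 18.1, 21 and 18.1 CPM against 57.9, 58.8 and 56.2 CPM (log2 fold change 1.59, adjusted p = 7.01e-11 from edgeR). For both cytokines the 2 groups stood far apart and the libraries within a group lay close together. The third gene that rose, TGFA, changed by 0.20 on the log2 scale (adjusted p = 0.0201 from edgeR). The neutrophil chemokine CXCL8 fell by 0.29, a call that was lost without the third library labelled si-CITED2. Only 2 genes of the list were called higher without the second, and likewise without the third, library labelled si-CITED2.

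EDN1, the ligand that stimulates osteoblasts through the endothelin A receptor, was counted 143, 148 and 110 times in si-Control and 162, 285 and 214 times in the libraries labelled si-CITED2. In CPM this was 5.4, 5.06 and 5.49 against 8.35, 11.6 and 9.95. The si-Control libraries were nearly equal, and the second library labelled si-CITED2 was the highest, as it was for PTHLH and RUNX2. The means were 5.32 ± 0.229 and 9.96 ± 1.6 CPM (SD, n = 3 each), and the log2 fold change was 0.91 (with standard error 0.14 and adjusted p = 0.000147 from edgeR). It ranked 319 from the highest of the tested genes.

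Among the other endothelin genes, 1 ligand fell and the processing enzyme rose. EDN2, a second endothelin ligand, was at 1.43, 2.43 and 1.85 CPM in si-Control and 0.619, 0.974 and 0.884 CPM in the libraries labelled si-CITED2. It fell by 1.19 on the log2 scale (standard error 0.29, adjusted p = 0.00806 from edgeR), its groups did not overlap, and the call was lost without the second si-Control library. ECE1, the enzyme that cleaves the inactive precursor to endothelin, rose from 278 ± 6.62 to 316 ± 13.6 CPM (SD, n = 3 each; log2 fold change 0.19, adjusted p = 0.0121 from edgeR). The receptors were at the detection limit, with 1 to 4 counts of EDNRA and 0 counts of EDNRB in each library. Of the 7 other endothelin genes 4 were tested, 1 was higher and 1 was lower.

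**Figure D2:**
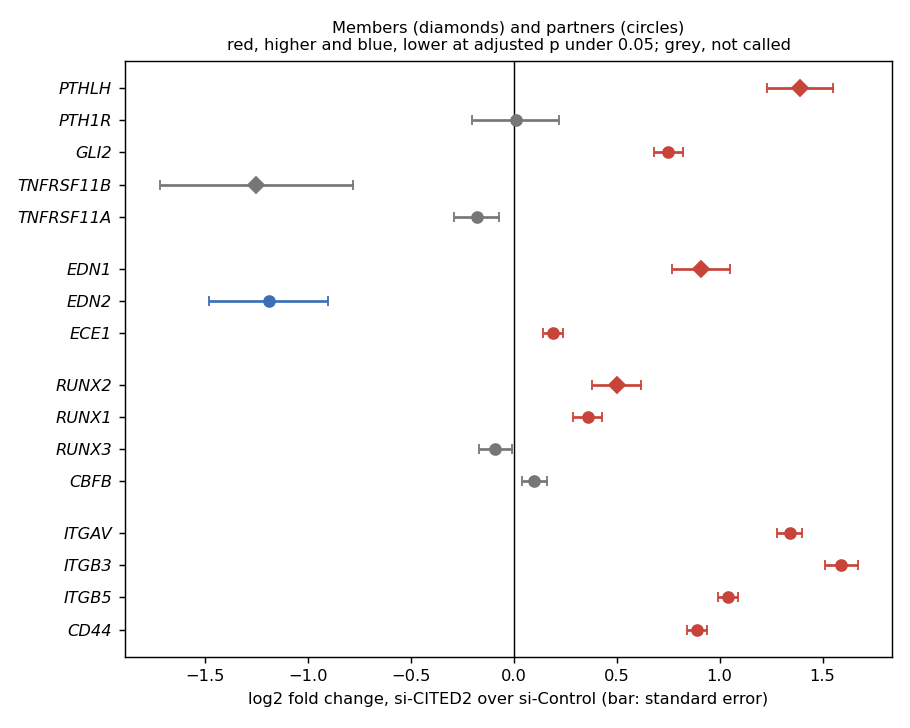
Log2 fold change of the libraries labelled si-CITED2 over si-Control with its standard error (bars) for the 4 tested genes (diamonds) and their partners (circles), in red or blue where called higher or lower. PTHLH (1.39) and EDN1 (0.91) lie to the right while TNFRSF11B (-1.25) and EDN2 (-1.19) lie to the left, and the integrin genes ITGAV and ITGB3 stand near PTHLH.

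RUNX2, which directs osteoblast differentiation and activates SPP1 and IBSP in bone, was counted 168, 168 and 133 times in si-Control and 169, 229 and 180 times in the libraries labelled si-CITED2. In CPM this was 6.34, 5.74 and 6.64 against 8.71, 9.29 and 8.37, and the groups did not overlap. The means were 6.24 ± 0.459 and 8.79 ± 0.464 CPM (SD, n = 3 each), and the log2 fold change was 0.50 (with standard error 0.12 and adjusted p = 0.00821 from edgeR). This was the smallest of the 3 rises. Without the second si-Control library it was 0.44 and lay at the threshold (adjusted p = 0.04998 from edgeR).

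The related factor RUNX1, a regulator of blood cell development, rose by 0.36 on the log2 scale (51.2 ± 2.49 to 65.8 ± 5.11 CPM, SD, n = 3 each; adjusted p = 0.000869 from edgeR). RUNX3 (log2 fold change -0.09, adjusted p = 0.517) and CBFB (0.10, adjusted p = 0.294), the shared binding partner of the RUNX proteins, were not called by edgeR. SOX9, a cartilage factor, was the other gene of the list that rose (0.33). Of 12 factors 8 were tested, 2 were higher, none was lower, and the median log2 fold change was 0.00, that of all genes tested. SP7, the osteoblast factor downstream of RUNX2, had 2 to 12 counts in a library and did not pass the filter.

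The matrix genes that RUNX2 activates in bone were close to the detection limit. SPP1 was counted 3, 10 and 1 times in si-Control and 4, 4 and 0 times in the libraries labelled si-CITED2, with overlapping groups. With no filter on low counts its log2 fold change was -0.54 (standard error 0.87, adjusted p = 0.774 from edgeR), so that a change was not detectable at this depth. IBSP was counted 2, 1 and 2 times in si-Control and 0, 1 and 1 times in the libraries labelled si-CITED2, at or under the detection limit throughout, and no fold is given. Of 12 other bone matrix genes only 3 were tested. FBN1 (fibrillin-1) rose by 0.69 on the log2 scale (adjusted p = 0.0111 from edgeR), and was not called without the first library labelled si-CITED2. COL1A1, the main collagen chain of bone, had a log2 fold change of 0.32 and was not called (adjusted p = 0.105 from edgeR), and OMD had -1.06 (adjusted p = 0.23). MEPE and DSPP were at 0 in all 6 libraries.

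CXCR4, the receptor that draws cells towards CXCL12 in marrow, was counted 11, 6 and 5 times in si-Control and 14, 11 and 7 times in the libraries labelled si-CITED2. In CPM this was 0.415, 0.205 and 0.25 against 0.722, 0.446 and 0.326, so that the lowest library labelled si-CITED2 lay within the si-Control values. It did not pass the filter. With no filter the log2 fold change was 0.75 (standard error 0.53, adjusted p = 0.452 from edgeR), so that a change was not detectable at this depth. Its ligand CXCL12 had 1 count in all 6 libraries together, and ACKR3, a second CXCL12 receptor, had at most 2 counts in a library.

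Receptors by which tumour cells hold on to osteopontin, bone sialoprotein and other bone matrix rose. ITGAV and ITGB3, the chains of the vitronectin receptor that binds SPP1 and IBSP, went from 95.8, 95.2 and 103 to 235, 263 and 243 CPM and from 9.85, 10.6 and 10.1 to 31.9, 30 and 30.7 CPM. Their log2 fold changes were 1.34 (adjusted p = 3.2e-11 from edgeR) and 1.59 (adjusted p = 3.85e-10 from edgeR). On GENCODE 29, exons of ITGB3 overlap AC068234.1 on the same strand and those of ITGAV overlap AC017101.1 on the opposite strand, so that their reads may be shared. ITGB5 (1.04), ITGA5 (0.90) and CD44, which also binds osteopontin (0.89), rose as well. Of 15 genes of the list 11 were tested, 7 were higher and none was lower, with a median log2 fold change of 0.56 beside 0.00 over all genes. In the same list, GAS6 (0.56, adjusted p = 6.83e-05) and ITGB1 (0.34, adjusted p = 5.77e-05) were also called higher by edgeR. ANXA2 (-0.07), AXL (-0.01) and CXCL16 (-0.02), further marrow-niche genes, were not called.

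A further pair of lists describe what bone-metastatic cells secrete. Of 17 signals that stimulate or restrain osteoblasts, 14 were tested, 4 were higher and 2 were lower. IGF2 gave the largest log2 fold change (3.51), but the read-through gene INS-IGF2 covers the same exons and had 19 to 328 counts, so that reads of the 2 symbols cannot be told apart. The BMP antagonist NOG rose by 1.04 on the log2 scale, the protease PLAU by 0.90 and the ligand WNT7B by 0.37. DKK1 and SFRP1, inhibitors of Wnt signalling in osteoblasts, fell by 0.27 and 0.34 on the log2 scale (adjusted p = 0.0179 and 0.0327 from edgeR). Neither was called without the second si-Control library or the first library labelled si-CITED2. Without the third si-Control library, and likewise without the third library labelled si-CITED2, only 1 gene of the list was called lower. The lytic programme described for bone metastasis of breast cancer held 11 genes, of which 10 were tested, 4 were higher and none was lower, with a median log2 fold change of 0.43. Besides IL11, these were CTGF (1.48), CYR61 (0.80) and MMP9. MMP9 was counted 3, 1 and 1 times in si-Control and 22, 31 and 15 times in the libraries labelled si-CITED2, and it passed the filter only through the latter. MMP1 (-0.87, adjusted p = 0.116), JAG1 (-0.29, adjusted p = 0.0811) and LOX (0.57, adjusted p = 0.126) were not called by edgeR.

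**Figure D3:**
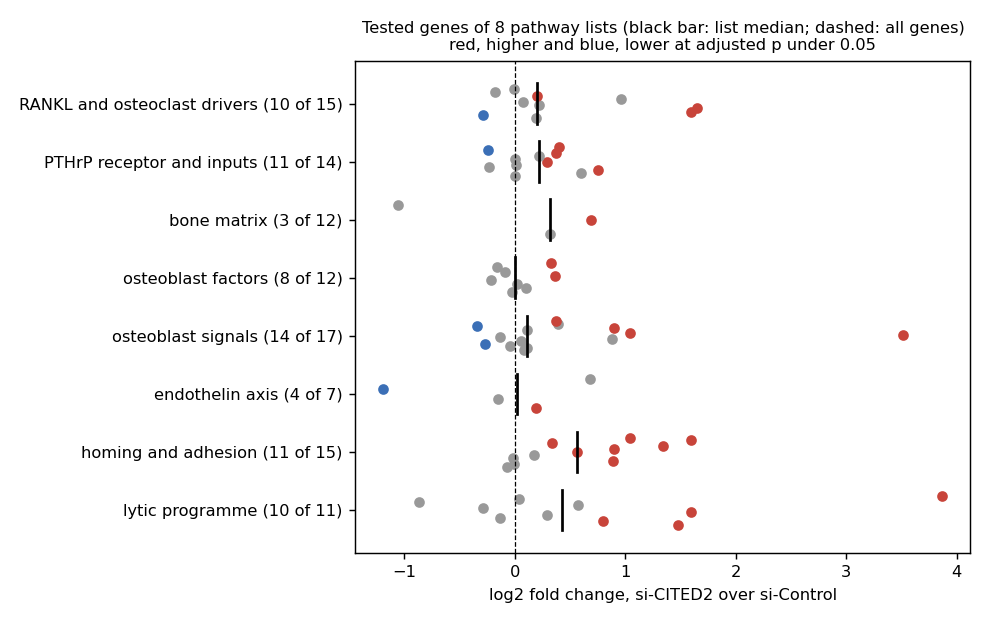
Log2 fold change of each tested gene in the 8 lists of pathway genes (number tested of number listed), without the 8 genes themselves, in red where called higher and blue where called lower. The list medians (black bars) run from 0.00 for osteoblast factors to 0.56 for homing and adhesion genes, and the dashed line is the median of all genes, 0.00.

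Over the 8 lists together, 102 genes were listed, 70 were tested, 25 were higher and 5 were lower. Over all genes tested, 9.36% were called higher and 8.09% lower. The median log2 fold change of the 70 genes was 0.19, beside 0.00 over all genes tested. The lists were chosen with earlier results of these data known, so that these counts are a description and not independent evidence. The genes that rose included ligands (IL6, IL11), surface receptors (ITGAV, ITGB3) and transcription factors (GLI2, RUNX1, SOX9, VDR).

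The levels of the 8 genes differed widely when divided by transcript length (CPM per kilobase, from the longest coding transcript of GENCODE 29, which may not be the annotation the authors counted on). In si-Control the order was EDN1 (2.62), PTHLH (1.71), RUNX2 (1.1), TNFRSF11B (0.35), CXCR4 (0.153), SPP1 (0.106), IBSP (0.0452) and TNFSF11 (0.00518). The libraries of EDN1 (2.49 to 2.7), PTHLH (1.53 to 2.01), RUNX2 (1.01 to 1.17) and TNFRSF11B (0.298 to 0.398) did not overlap with those of the next gene, whereas CXCR4 (0.108 to 0.219) overlapped with SPP1 (0.0316 to 0.216), and SPP1 with IBSP. In the libraries labelled si-CITED2, EDN1 (4.11 to 5.69) and PTHLH (3.84 to 5.17) overlapped, so that the first and second place could not be told apart. RUNX2 (1.47 to 1.63) was next, and TNFRSF11B (0.0429 to 0.29) overlapped with CXCR4 (0.172 to 0.381) there.

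The genes whose pattern over the 6 libraries was most like that of a called gene were found by Pearson's r of log2 CPM over all tested genes, as a description only, since 2 groups of libraries give any strongly changed gene a high r. For PTHLH they were CMTM3 (0.998), NSDHL (0.997) and CYP24A1 (0.997), for EDN1 VIM-AS1, DUSP7 and PLK3 (0.998 each), and for RUNX2 CYTH3 (0.997), ARHGEF28 (0.995) and TGFB1 (0.994). CYP24A1 encodes the enzyme that breaks down active vitamin D, and DUSP7 a phosphatase of ERK. VIM-AS1 is antisense to VIM and the counting is not stated to use strand, so that its reads may be those of VIM.

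**Figure D4:**
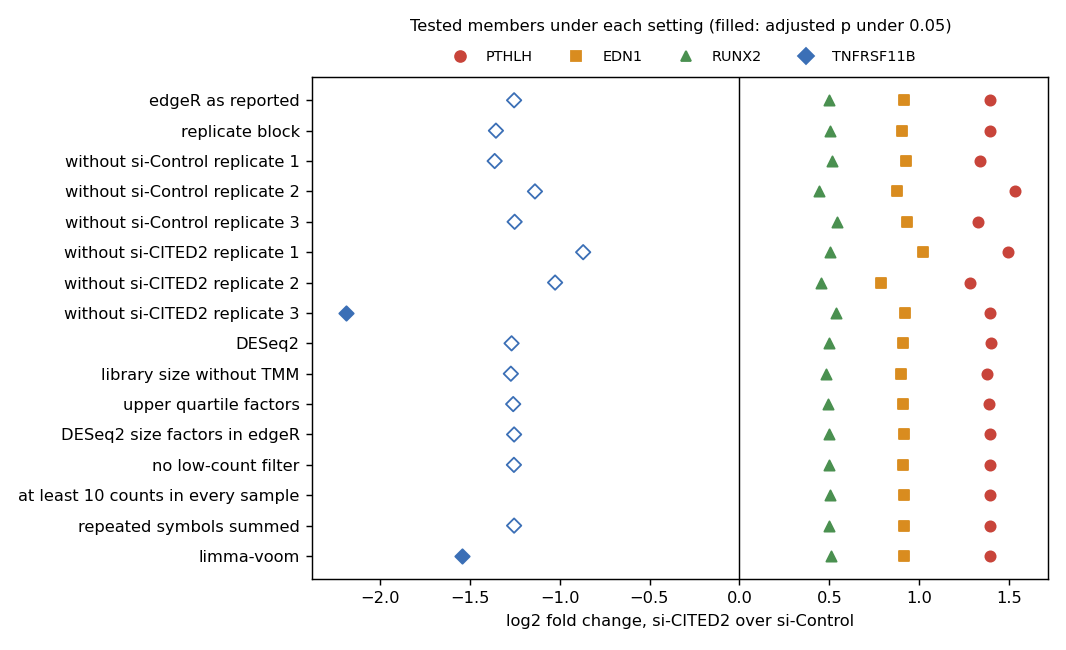
Log2 fold change of the 4 tested genes under each processing setting, filled where the adjusted p was under 0.05. PTHLH (1.28 to 1.53), EDN1 (0.79 to 1.02) and RUNX2 (0.44 to 0.54) stay filled in every setting, while TNFRSF11B is filled only without the third library labelled si-CITED2 and with limma-voom.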

How the data were processed

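RNA-seq counts of 6 PC3 libraries were used, 3 per group, grouped by their labels. The values the authors deposited are whole-number counts for each gene symbol, not normalized; the submitters' processing notes name TopHat, edgeR and hg19, and the labels a SMARTer mRNA-seq kit. The counting program, its annotation and its use of strand are not given in the sources used here. For a symbol listed more than once, the entry with the highest total entered the fit (the others held 0.0821% of counts). The test used edgeR 4.0.16 under R 4.3.3 (filterByExpr, TMM, glmQLFit and glmQLFTest, Benjamini-Hochberg over all genes tested), with the standard error taken from the F statistic. CPM were scaled by TMM over tested genes, and log2 CPM had a prior count of 2. limma 3.58.1 (voom) and DESeq2 1.42.0 were among the alternatives, beside the replicate block, leaving out each library, other scalings, filters, summed repeated symbols and the rule of unadjusted p under 0.05 with a fold over 2. Replicates of a group differed by more than counting noise (chi-square per degree of freedom at least 2.89), and the study states that the experiments were independent; p-values measure the spread between these libraries. The standard errors come from the same fit and hold this spread too, whereas the detection limit is a fixed 3 counts. No further batch is given in the labels. The members and lists were chosen with earlier results of these data known. Named were the 8 genes and CITED2, a set of receptors and partners, in each list up to 5 called genes per direction by size, and 3 genes of most similar pattern per called gene. OMD, the uncalled COL1A1, MMP1, JAG1, LOX, ANXA2, AXL, CXCL16, SP7, MEPE, DSPP, CCL2, CSF1R, GAS6, ITGB1, CALCR and ACP5 were named after their values were seen.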

Additional observations from a re-analysis of the deposited data

How the results depend on the processing

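PTHLH, EDN1 and RUNX2 were called higher under each of 15 alternatives, and TNFRSF11B kept its negative sign in each of 14 (log2 fold change -2.19 to -0.87). It was called with limma-voom and without si-CITED2 replicate 3 only, each giving 1 gene of the 8 called lower, against 0 otherwise (0 to 1 over the leave-one-out fits). Asking for 10 counts in all 6 libraries left TNFRSF11B untested. The rule of unadjusted p under 0.05 and fold over 2 gave 1 higher and 1 lower of the 8 genes (PTHLH and TNFRSF11B) and 259 higher and 52 lower over all genes (1.59% and 0.319% of those tested). With no filter on low counts 5 osteoclast drivers were called higher, against 3. Over the 8 lists, the genes called lower numbered 2 to 5 without single libraries (2 without si-Control replicate 2, 3 without si-CITED2 replicate 1 or 3). CITED2 lay past the threshold by little: the log2 fold change was 0.221 without TMM (adjusted p = 0.0518 from edgeR) and 0.173 to 0.291 without single libraries, where it was called in 2 of 6 fits, and the cause was not tested. The highest bound of the RANKL to osteoprotegerin ratio in si-CITED2 was 0.2 to 0.5 without single libraries, the lower value without the second library labelled si-CITED2. The replicate numbers did not pair the libraries (correlation of same-numbered deviations -0.038 to 0.0336), and with the replicate block PTHLH was at 1.394, EDN1 at 0.903, RUNX2 at 0.501, TNFRSF11B at -1.354 and CITED2 at 0.240, with none of these calls changed, 1405 genes higher and 1154 lower over all genes, and 26 higher and 5 lower in the 8 lists.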
